A study of Mus musculus with 6 samples.

Results

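Of the 31318 peaks in the 3 merged peak lists of KLF3, ΔDL and DBD, 2283 were annotated to a LINE, a long interspersed nuclear element. A peak was counted when the repeat class LINE stood in the detailed annotation that the authors' peak annotation program had given it. By this rule 477 of 14115 KLF3 peaks, 1216 of 12248 ΔDL peaks and 590 of 4955 DBD peaks lay in LINEs. The program ranks promoters and exons before repeats, so every LINE peak was intronic or intergenic.

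The data came from chromatin immunoprecipitation (ChIP) of V5-tagged proteins in murine embryonic fibroblasts (MEFs) of strain C57BL/6. All cells were Klf3-/- and carried a retroviral transgene selected with puromycin, and each construct was studied in a stable line grown from a single clone. KLF3 was the full-length protein, ΔDL carried a mutation in the motif that contacts the corepressor CtBP, and DBD kept the zinc fingers without the N-terminal domain. ChIP was done in duplicate for each construct, so 6 replicate lists stood behind the 3 merged lists, and each input library entered only through the authors' peak calling. No label says that duplicates came from separate cultures, so p-values measure the spread between these lists, which may be technical. Tests over all 6 lists treat them as independent, although they are duplicates of 3 clones and share many peaks. With 1 clone for each construct, clone and construct cannot be told apart.

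LINEs are retrotransposons that copy themselves through an RNA and a reverse transcriptase, and most copies in a mammalian genome are truncated and inactive. They are usually rich in A and T and frequent far from genes and on the X chromosome. L1 is the family that stayed active in mouse, where subfamilies named Lx, L1_Mur, L1_Rod, L1Md and the like arose in the rodent lineage, whereas L2, CR1 (with its L3 elements) and RTE copies are old remnants. KLF3 is a Krüppel-like factor whose zinc fingers recognise CACCC-type DNA, and its N-terminal domain recruits CtBP.

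The sequences below show LINE peaks with the KLF3 consensus and LINE peaks without it. Each is 100 bp around the peak centre on the plus strand of mm9, named by the nearest gene and the repeat subfamily. The first set holds 4 of the 5 highest LINE peaks of KLF3 and 2 that lost height in a mutant. Capitals mark the CACCC-type consensus on either strand, that starts with A or C and then has CA or CG before the final C run (ACACCC, or with G in the middle ACGCCC, or starting with C as CCACCC, or with both changes CCGCCC), and the AP-1 sequence TGACTCA with its reverse complement, TGAGTCA.
Thpo L3, chr16:20726586-20726685: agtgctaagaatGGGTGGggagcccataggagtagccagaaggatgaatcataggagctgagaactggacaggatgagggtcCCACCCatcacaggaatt
Asap1 L1MB8, chr15:64308952-64309051: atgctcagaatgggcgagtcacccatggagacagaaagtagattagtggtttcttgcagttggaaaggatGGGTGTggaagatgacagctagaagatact
Odf1 L2, chr15:38174873-38174972: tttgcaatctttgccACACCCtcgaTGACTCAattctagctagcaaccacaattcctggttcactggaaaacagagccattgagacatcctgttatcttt
Asap1 intron L1MB8, chr15:64195803-64195902: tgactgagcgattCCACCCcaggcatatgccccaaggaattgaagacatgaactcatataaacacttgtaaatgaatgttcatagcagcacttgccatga
Acap2 L1MC1, chr16:31173074-31173173: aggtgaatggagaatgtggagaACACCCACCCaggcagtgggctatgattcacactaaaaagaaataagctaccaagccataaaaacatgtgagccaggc
Rnf19b L3, chr4:128712469-128712568: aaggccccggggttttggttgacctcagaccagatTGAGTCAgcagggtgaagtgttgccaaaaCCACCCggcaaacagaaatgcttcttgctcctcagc
The second set holds 4 of the 5 highest LINE peaks of DBD, none of which had either sequence. Capitals mark runs of at least 10 bases of A and T without interruption.
Cox8c HAL1, chr12:104133413-104133512: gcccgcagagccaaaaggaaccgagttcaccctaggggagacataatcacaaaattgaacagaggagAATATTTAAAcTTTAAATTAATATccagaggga
Ncam2 Lx7, chr16:80832437-80832536: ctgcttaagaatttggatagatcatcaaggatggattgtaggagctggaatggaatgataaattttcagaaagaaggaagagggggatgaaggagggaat
Zpld1 L1M2, chr16:54593528-54593627: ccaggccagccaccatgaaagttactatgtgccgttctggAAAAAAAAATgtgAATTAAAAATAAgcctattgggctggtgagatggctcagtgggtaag
Atxn7l3b L1M2, chr10:112663497-112663596: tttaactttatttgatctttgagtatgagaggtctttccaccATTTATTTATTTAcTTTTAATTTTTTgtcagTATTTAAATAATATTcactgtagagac
A match is a description of the letters in the window and not evidence of a bound site. The peaks of the first set held between 1 and 2 consensus matches each, while 3 of the 4 windows of the second set held an A/T run, the longest of 15 bp at Atxn7l3b.

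LINE peaks took a larger share of the lists of both mutants than of KLF3. In the merged lists the share was 3.38% for KLF3 (95% Wilson interval 3.09 to 3.69), 9.93% for ΔDL (9.41 to 10.5) and 11.9% for DBD (11.03 to 12.8). These intervals cover counting error over peaks and not the spread between replicates. The share of the genome that LINEs cover was not available here. The values thus compare the lists and do not show enrichment or depletion in LINEs. Among the replicate lists, 1497 of 26772 peaks (5.59%) and 681 of 23872 (2.85%) were in LINEs for KLF3 replicates 1 and 2. The ΔDL lists had 1758 of 17206 (10.2%) and 2337 of 32624 (7.16%). The DBD lists had 1111 of 9156 (12.1%) and 934 of 8105 (11.5%). The lists of the 3 constructs did not overlap in this share, with both KLF3 lists lowest and both DBD lists highest.

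**Figure D1:**
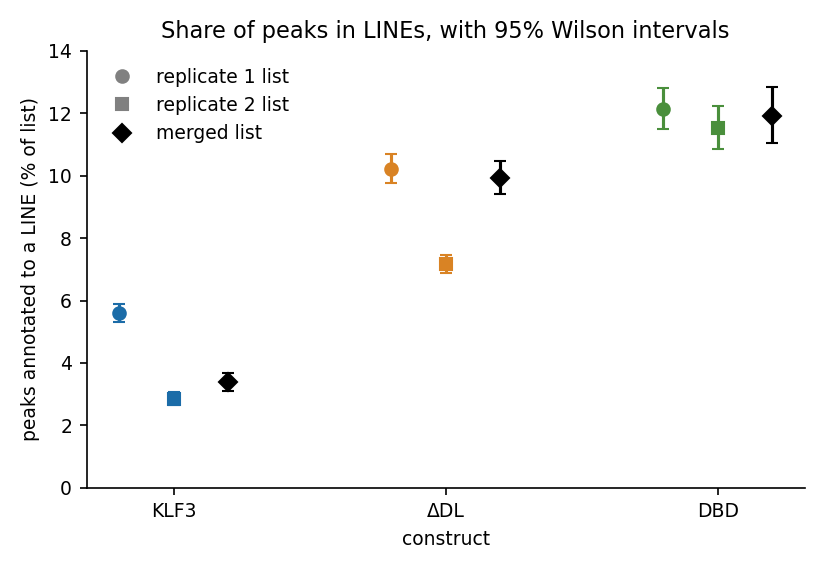
Share of peaks annotated to a LINE, in percent of each list (y axis), for the replicate lists (circles and squares) and merged lists (diamonds) of each construct, with 95% Wilson intervals over peaks. KLF3 lists lie between 2.85% and 5.59%, ΔDL lists between 7.16% and 10.2%, and DBD lists between 11.5% and 12.1%.

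The mean share was 4.22% ± 1.94 for KLF3, 8.69% ± 2.16 for ΔDL and 11.8% ± 0.432 for DBD (SD, n = 2). ΔDL exceeded KLF3 by 4.47 percentage points, DBD exceeded KLF3 by 7.61 and DBD exceeded ΔDL by 3.14. Each of these 3 differences had p = 0.333 in a two-sided exact permutation test and also after Benjamini-Hochberg adjustment, the smallest value that 2 lists against 2 can give, so no pair could pass a threshold of 0.05. Without ΔDL replicate 1 the difference between ΔDL and KLF3 was 2.94 percentage points, and without ΔDL replicate 2 that between DBD and ΔDL was 1.61.

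Depth, here the number of tags counted behind a list, moved with the share inside constructs. The score of a peak is a whole multiple of what 1 tag is worth, which gave 5.46 M and 18.1 M tags behind KLF3 replicates 1 and 2, 1.77 M and 10.2 M behind ΔDL, and 7.81 M and 8.38 M behind DBD. The paper lists more mapped reads than this for every immunoprecipitation replicate, so these tags are not the number of reads sequenced. Why the counts differ was not tested. For each construct the replicate with fewer tags had the larger LINE share. The median LINE peak of KLF3 rested on 8 and 17 tags, that of ΔDL on 6 and 10, and that of DBD on 10 in both lists. The part of depth in the result was not tested. With the 8105 highest-scoring peaks taken from every list KLF3 had shares of 3.05% and 1.20%, ΔDL had 9.96% and 5.55%, and DBD had 11.99% and 11.5%. This cut equalises the number of peaks and not the tags, so it does not settle the part of depth. It kept all of DBD replicate 2 but only the top of the KLF3 lists of 26772 and 23872 peaks, where LINE peaks were low.

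The mutants also had a larger portion of peaks outside promoters and exons, which are the peaks that can be annotated to a repeat. Among intronic and intergenic peaks alone, LINEs took 5.11% in the merged KLF3 list, 11.2% in ΔDL and 12.4% in DBD. On this denominator the KLF3 replicates had 7.32% and 4.43%, ΔDL 11.4% and 8.88%, and DBD 12.7% and 12.2%. The order of the constructs was the same as for the whole lists, and the groups again did not overlap.

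Other repeat classes differed less between the lists. Peaks in SINEs, the short interspersed elements, made up 2.25% of the merged KLF3 list, 3.76% of ΔDL and 3.71% of DBD. Peaks in LTR elements, which derive from endogenous retroviruses, made up 3.59%, 5.36% and 5.49%. There were 1.5 LINE peaks for each SINE peak in the KLF3 list, 2.64 in ΔDL and 3.21 in DBD, and 0.941, 1.85 and 2.17 for each LTR peak. By replicate, KLF3 had a ratio of LINE to SINE peaks of 1.98 and 1.21, ΔDL had 2.55 and 1.91, and DBD had 3.17 and 2.74. KLF3 replicate 1 lay above ΔDL replicate 2 in this ratio, so KLF3 and ΔDL overlapped, whereas DBD lay above both.

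L1 elements made up most LINE peaks of every construct, and the older families were more frequent in the KLF3 list. L1 took 418 of the 477 KLF3 peaks (87.6%), 1158 of the 1216 ΔDL peaks (95.2%) and 568 of the 590 DBD peaks (96.3%). L2 held 45, 47 and 18 peaks, CR1 held 12, 7 and 2, and RTE held 2, 4 and 2. Together these 3 old families made up 12.4% of KLF3 LINE peaks against 4.77% for ΔDL and 3.73% for DBD. Thus the number of L2 peaks was about equal in the KLF3 and ΔDL lists, while the number of L1 peaks was larger in ΔDL.

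In KLF3 replicates 1 and 2 the L1 share of LINE peaks was 91.0% and 84.6%, in those of ΔDL 95.6% and 93.8%, and in those of DBD 96.5% and 95.9%. The means were 87.8% ± 4.53, 94.7% ± 1.26 and 96.2% ± 0.395 (SD, n = 2). The differences of 6.95 percentage points between ΔDL and KLF3, 8.43 between DBD and KLF3 and 1.48 between DBD and ΔDL each had p = 0.333 in the exact permutation test, the smallest possible. No list overlapped those of another construct, and without KLF3 replicate 2 ΔDL and DBD exceeded KLF3 by 3.75 and 5.23 points.

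Rodent-named L1 subfamilies were the largest group. They held 245 KLF3 peaks (51.4% of LINE peaks), 770 ΔDL peaks (63.3%) and 356 DBD peaks (60.3%). They took 53.4% and 50.5% of LINE peaks in the KLF3 replicates, 62.6% and 59.6% in ΔDL, and 62.9% and 60.6% in DBD. KLF3 was lowest in both replicates, and the ΔDL and DBD lists overlapped. Lx elements, an old rodent branch, held 34.0%, 38.6% and 38.0% of LINE peaks in the merged lists. L1Md elements, the young mouse branch that includes mobile copies, held 10, 41 and 19 peaks, or 2.10%, 3.37% and 3.22%.

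The peaks were spread over 88 subfamilies for KLF3, 96 for ΔDL and 88 for DBD, and no subfamily took 10% of a merged list's LINE peaks. The 5 most frequent in the KLF3 list were Lx8 with 43 peaks, Lx9 with 33, Lx7 with 27, L1_Mur3 with 19 and L1M2 with 18. In ΔDL they were Lx8 with 92, Lx9 with 88, L1_Mur3 with 80, Lx7 with 76 and Lx5 with 53. In DBD they were Lx9 with 47, Lx7 with 43, L1_Mur3 with 39 and Lx8 with 37, followed by Lx5, Lx6 and L1M2 with 24 each. The same 4 subfamilies thus led ΔDL and DBD and filled the first 4 places in KLF3. The genome share of each subfamily was not available, so these counts do not show a preference for any of them.

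LINE peaks were low peaks in the KLF3 list and ordinary ones in the DBD list. A height is the log2 of the tags in 400 bp per 100 M tags, counted by the authors in both replicates combined, so heights have no replicate error. The median LINE height was 7.16 for KLF3 (quartiles 6.86 and 7.67, range 6.07 to 10.16), against 7.70 for other intronic and intergenic peaks of that list. For ΔDL it was 7.46 (quartiles 7.15 and 7.84, range 6.29 to 10.31) against 7.59. For DBD it was 7.21 (quartiles 6.95 and 7.50, range 6.04 to 8.95) against 7.23. The log2 gap between LINE and other peaks was therefore widest in KLF3 and nearly closed in DBD.

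**Figure D2:**
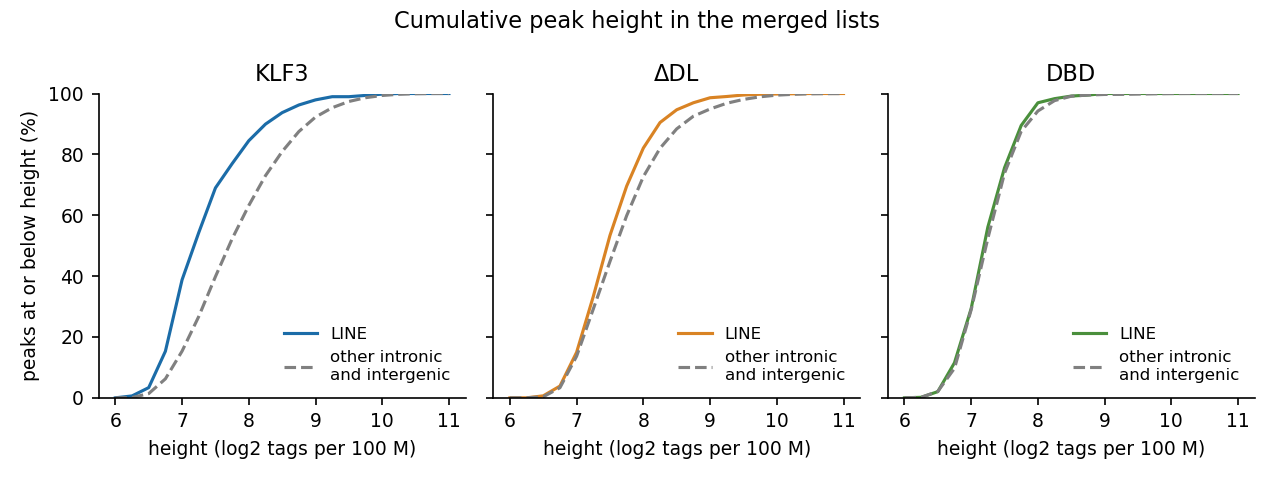
Cumulative share of peaks (y axis, percent) at or below a height (x axis, log2 tags per 100 M tags) in each merged list, for LINE peaks (solid) and other intronic and intergenic peaks (dashed). The LINE curve lies to the left of the other in KLF3 (medians 7.16 and 7.70), slightly to the left in ΔDL (7.46 and 7.59), and on it in DBD (7.21 and 7.23).

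The tops of the lists differed in the same way. Among the 500 highest peaks of each merged list, KLF3 had 4 in LINEs (0.8%), ΔDL had 12 (2.4%) and DBD had 46 (9.2%). In the replicate lists ranked by score, KLF3 had 8 and 2, ΔDL had 50 and 11, and DBD had 48 and 43. ΔDL replicate 1, the shallowest library, thus stood with DBD and not with ΔDL replicate 2 in this count.

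Peak scores were also compared within each replicate list. The median log2 score of LINE peaks was lower than that of other intronic and intergenic peaks by 0.17 and 0.16 in the KLF3 lists and by 0.14 in ΔDL replicate 2, and equal in the other 3 lists. The mean difference over the 6 lists was -0.08 ± 0.09 (SD, n = 6) on the log2 scale, with p = 0.25 in a two-sided exact permutation test over lists. A score step of a single tag is coarse at these depths, and equal medians say only that both groups fell on the same tag number.

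Among KLF3 LINE peaks the old families were the higher ones. The median height was 7.10 for L1, 7.03 for the rodent-named L1 subfamilies within it, 7.70 for L2 and 7.99 for the 12 CR1 peaks. In ΔDL the median height was 7.46 for L1, 7.61 for L2 and 7.77 for CR1, and in DBD it was 7.21 for L1, 7.13 for L2, 7.49 for the 2 CR1 peaks and 7.33 for the 2 RTE peaks. L2 peaks thus lay above L1 in KLF3 and ΔDL and slightly below it in DBD, where CR1 and RTE held too few peaks to rank.

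LINE peaks were poorer in G+C than other peaks of the same kind. The median G+C content of the whole peak was 39.7% for KLF3 LINE peaks, 36.2% for ΔDL and 35.4% for DBD, against 45.9%, 39.2% and 37.7% for other intronic and intergenic peaks. KLF3 replicates 1 and 2 had LINE medians of 35.8% and 40.6%, those of ΔDL had 33.8% and 35.1%, and those of DBD had 33.6% and 33.1%. LINE peaks were lower than other peaks in 6 of 6 lists, on average by 4.38 percentage points (35.3% ± 2.76 against 39.7% ± 5.92, SD, n = 6). The difference had p = 0.03125 in the two-sided exact permutation test over lists, the smallest possible, and 0.0417 after Benjamini-Hochberg adjustment over the 4 within-list comparisons. With only the higher-scoring 50% of peaks, and with only peaks found in both replicates, the adjusted p was 0.0625, above the threshold of 0.05. The difference was largest in the KLF3 lists, at -6.504 and -9.09 points, and smallest in the DBD lists, at -0.763 and -1.57. LINEs are usually rich in A and T, so this direction could be foreseen from the choice of peaks. The same holds for the consensus below, which is rich in G and C.

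Between constructs the mean of the LINE medians was 38.2% ± 3.38 for KLF3, 34.5% ± 0.905 for ΔDL and 33.3% ± 0.366 for DBD (SD, n = 2). ΔDL lay below KLF3 by 3.69 points (difference -3.69), DBD below KLF3 (difference -4.84) and DBD below ΔDL (difference -1.15), each with p = 0.333 in the exact permutation test. The lists did not overlap, although KLF3 replicate 1 (35.8%) lay close to ΔDL replicate 2 (35.1%). The widths of the replicate peaks differ between lists, so these medians were taken over windows of unequal length. Without KLF3 replicate 2 the difference between ΔDL and KLF3 was -1.30 points and that between DBD and KLF3 was -2.44.

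In the mutants the centres of LINE peaks were poorer in G+C than the flanks. In DBD the central 100 bp of LINE peaks had a median G+C content of 33% against 38% in flanks from 400 to 500 bp away, and in ΔDL it had 34% against 38.5%. In KLF3 the centre had 39% and the flanks 40%. The flanks of the 3 merged lists thus differed less from each other than the centres did. The KLF3 replicates differed, with 35% at the centre and 39% in the flanks of replicate 1, close to the mutants, and 40% and 41% in replicate 2. Such a dip was not particular to LINE peaks, since the centres of other intronic and intergenic peaks had 36% against 41% in ΔDL and 34% against 40% in DBD, and in KLF3 47% against 45%.

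**Figure D3:**
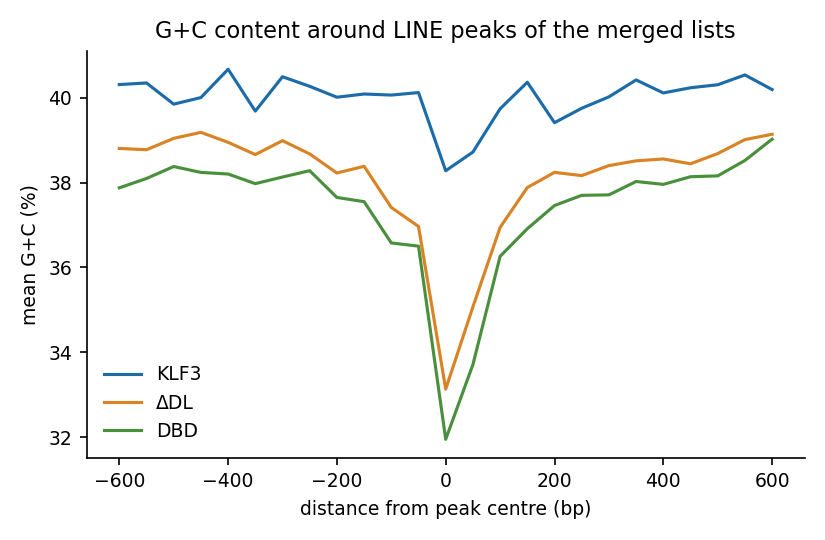
Mean G+C content in percent (y axis, not starting at 0) by distance from the peak centre in bp (x axis) for LINE peaks of each merged list. At the centre the mean is 38.3% for KLF3, 33.1% for ΔDL and 31.95% for DBD, and at 600 bp it is 40.2%, 39.1% and 39.0%.

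The CACCC-type consensus was rarer in LINE peaks than in other peaks. It was found within the central 100 bp of 23.7% of KLF3 LINE peaks, against 46.2% of other intronic and intergenic peaks and 57.9% of the whole merged list. Flanks of the KLF3 LINE peaks held it in 9.96%. For ΔDL it was found in 7.89% of LINE peaks, 14.6% of other peaks and 19.2% of the list, with 8.68% of LINE flanks. For DBD the values were 5.25%, 7.03% and 7.61%, with 7.29% of LINE flanks. In the merged lists the KLF3 LINE peaks alone exceeded their flanks.

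In the replicate lists the consensus was found in 14.6% and 25.1% of KLF3 LINE peaks, 8.42% and 11.2% of those of ΔDL, and 5.76% and 6.00% of those of DBD. In the flanks it was present in 9.79% and 11.1% (KLF3 lists), 8.53% and 9.73% (ΔDL lists) and 7.92% and 7.60% (DBD lists). LINE peaks thus exceeded their flanks in both KLF3 lists and in ΔDL replicate 2, and lay below them in the other 3 lists. The share was below that of other intronic and intergenic peaks in 6 of 6 lists, on average by 9.77 percentage points (11.9% against 21.6%), with p = 0.03125 in the exact permutation test and 0.0417 after adjustment. The adjusted p was 0.0625 in the same 2 subsets and in a window of 50 bp. The gap between LINE and other peaks was -14.8 and -22.4 points in the KLF3 lists and -1.42 and -3.18 points in the DBD lists. AP-1, the factor pair of Fos and Jun proteins, binds the sequence TGACTCA, which was sought in the central 200 bp. The merged lists held it in 14.3% of KLF3 LINE peaks against 23.9% of other peaks, in 3.13% against 7.20% for ΔDL, and in 3.73% against 3.06% for DBD. In the replicate lists it was less frequent in LINE peaks in 6 of 6, on average by 4.27 points, with p = 0.03125 and an adjusted p = 0.0417 in the exact permutation test. In those 3 alternatives the difference was smaller, at -3.24, -4.05 and -1.15 points, with adjusted p of 0.0833, 0.167 and 0.167. The differences in the DBD lists were -0.431 and -0.159 points, and the merged DBD list had the opposite sign.

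Runs of at least 10 bases of A and T, a feature chosen after the data were seen, were found in the central 100 bp of 29.4% of KLF3 LINE peaks, 44.0% of ΔDL and 45.8% of DBD. The KLF3 replicates had shares of 40.1% and 23.5%, those of ΔDL 43.9% and 39.6%, and those of DBD 46.6% and 47.4%. KLF3 replicate 1 lay above ΔDL replicate 2, so these 2 constructs overlapped. In the merged lists the flanks held such runs in 25.7%, 28.4% and 29.6%. Other intronic and intergenic peaks held them in 18.2% of cases in KLF3, 41.7% in ΔDL and 47.6% in DBD. The mutants' LINE and other peaks were thus close in this feature, and both lay above their flanks.

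Most KLF3 LINE peaks were also called for a mutant. A KLF3 LINE peak overlapped a ΔDL merged peak by at least 1 bp in 323 of 477 cases (67.7%, 95% Wilson interval 63.4 to 71.8). Over the whole KLF3 list 33.5% of peaks did so, and 38.1% of other intronic and intergenic peaks. For DBD the number was 260 of 477 (54.5%, 50.02 to 58.9), against 17% of the whole list and 22.8% of other intronic and intergenic peaks. In the reverse direction, 26.4% of ΔDL LINE peaks overlapped a KLF3 peak (38.4% of the ΔDL list) and 42.9% overlapped a DBD peak (36.2% of the list). Of the DBD LINE peaks, 44.2% overlapped a KLF3 peak (48.5% of the DBD list) and 89.0% a ΔDL peak (89.5% of the list). LINE peaks stood apart from their list mainly for KLF3.

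High KLF3 LINE peaks overlapped a mutant peak less often than the rest. In an alternative chosen after the data were seen, of the 90 LINE peaks in the upper 50% of the KLF3 list by height, 40.0% overlapped a peak of the whole ΔDL list and 6.67% one of the whole DBD list, against 27.3% and 2.29% of all peaks in that upper part. With the mutant lists also cut to their upper 50%, the LINE shares were 37.8% and 6.67%, against 26.6% and 1.98% of all peaks. Where an overlap in either replicate list of the mutant was enough, 88.7% of KLF3 LINE peaks were found for ΔDL, against 75.7% of the whole KLF3 list and 76.6% of other intronic and intergenic peaks. For DBD 62.3% were found, against 22.1% and 28.5%. The excess of LINE peaks for ΔDL was thus smaller by this rule than by the merged lists. The overlapping peaks carried the same annotation in nearly all cases, since 254 of the 260 KLF3 LINE peaks with a DBD peak overlapped one that was itself a LINE peak.

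KLF3 LINE peaks with and without an overlap in the mutants' merged lists differed in height and sequence. These classes do not mean that a peak was absent from a mutant. The ΔDL merged list matched 323 of the 477 KLF3 LINE peaks, while a match in either ΔDL replicate list was found for 423. For DBD the numbers were 260 and 297. The 149 found in neither mutant merged list had a median height of 7.63 and a median G+C content of 44.1%. The consensus was present in 67 of them (45.0%, interval 37.2 to 53.0), an AP-1 sequence in 49 (32.9%) and an A/T run in 19 (12.8%). The 255 found in both mutant lists had a median height of 6.97 and a median G+C content of 36.2%. The consensus was present in 19 of these (7.45%, interval 4.82 to 11.3), an AP-1 sequence in 8 (3.14%) and an A/T run in 106 (41.6%). Flanks held the consensus in 11.7% and 8.63% of the 2 groups, so only the first group exceeded its flanks. The 68 found in ΔDL but not in DBD stood between, with a median height of 7.52, the consensus in 26 (38.2%) and an AP-1 sequence in 10 (14.7%), and 5 were found in DBD but not in ΔDL.

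**Figure D4:**
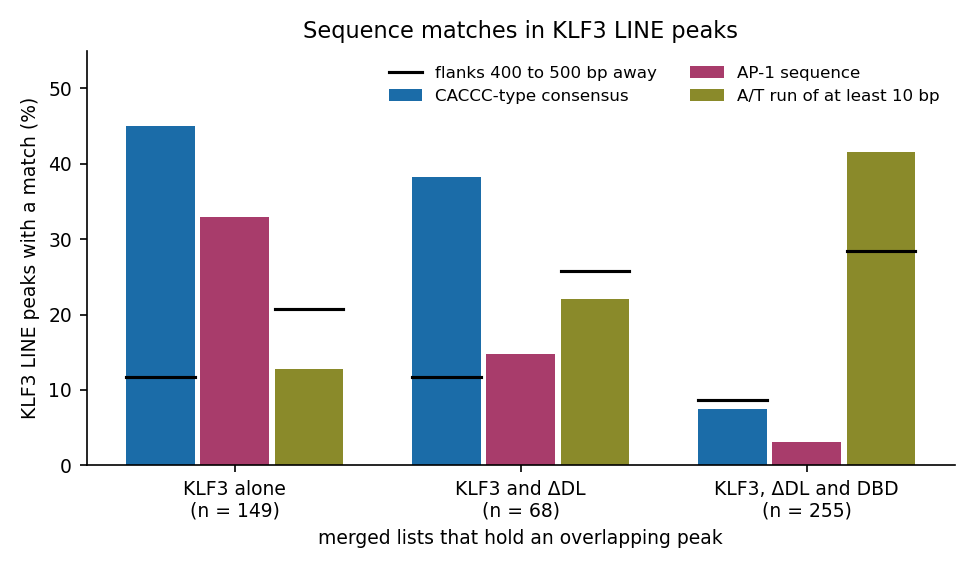
Share of KLF3 LINE peaks in percent (y axis) with a CACCC-type consensus, an AP-1 sequence or an A/T run, grouped by the merged lists that held an overlapping peak (x axis), with black lines for the flanks of the consensus and the A/T run. The consensus falls from 45.0% in KLF3 alone to 7.45% in peaks of all 3 lists, while the A/T run goes from 12.8% to 41.6%.

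Rodent-named subfamilies made up 30.9% of the peaks of KLF3 alone and 63.1% of those in all 3 lists. Other intronic and intergenic KLF3 peaks divided alike, with the consensus in 57.7% of the 5428 found in KLF3 alone and in 8.27% of the 1970 found in all 3. LINE peaks differed from these in the proportion, since peaks in all 3 lists were 53.5% of KLF3 LINE peaks and 22.3% of the other intronic and intergenic peaks. Sharing was not computed for SINE or LTR peaks alone, so the proportion is not shown to be particular to LINEs. In KLF3 replicate 1 the consensus was present in 21.5% of the 702 LINE peaks with no overlap in a mutant merged list and in 8.55% of the 795 with one. In KLF3 replicate 2 the shares were 39.7% of 307 and 13.1% of 374. Both replicates showed the same order.

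LINE peaks of ΔDL alone or of DBD alone held the consensus less often than those of KLF3 alone. The 629 LINE peaks of ΔDL alone had it in 7.79% (flanks 8.82%) and an A/T run in 42.1%, with a median height of 7.20. The 266 shared by ΔDL and DBD had it in 3.01% and an A/T run in 53.0%. The 65 shared by ΔDL and KLF3 had it in 32.3%, with a median height of 8.02. Of the 60 LINE peaks of DBD alone, 6 held the consensus (10.0%, interval 4.66 to 20.1, flanks 5.83%), and the interval covers the value of the flanks.

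The table of all peaks gives the height of every construct at each of 22188 peaks. A peak there counted as LINE when it matched a LINE peak of any merged list. It could thus be listed for KLF3 without being a LINE peak of the KLF3 list. By this rule 1457 lay in LINEs. Of these, 264 were called for all 3 constructs, 630 for ΔDL alone, 277 for ΔDL and DBD, 153 for KLF3 alone and 60 for DBD alone. The authors counted tags in both replicates together, so the differences below have no replicate error and no test. Both mutants are compared with the same KLF3 heights. At the 2334 peaks called for all 3 constructs the median height of ΔDL was 1.06 above that of KLF3 and that of DBD was 0.42 above it (log2), and values with these shifts removed are called scaled.

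Heights as deposited were at least 2-fold higher in ΔDL than in KLF3 at 772 LINE peaks (53.0%, against 28.8% of all peaks) and lower at 33 (2.26%, against 14.8%). After scaling they were higher at 15 (1.03%, against 0.397% of all peaks) and lower at 127 (8.72%, against 42.9%). In DBD they were at least 2-fold lower at 186 LINE peaks (12.8%, against 52.6% of all peaks) and higher at 98 (6.73%, against 3.27%). After scaling these were 194 lower (13.3%, against 53.7%) and 15 higher (1.03%, against 0.428%). The rise in ΔDL was of the size of the shift at peaks called for all 3 constructs, which include 264 of these LINE peaks. Whether that shift is technical or a difference in binding was not tested. Losses were rarer at LINE peaks than over all peaks on either scale, but the calls behind these sets differed. Of the 1457 LINE peaks 490 were listed for KLF3, against 14115 of all 22188. Within call classes the shares at least 2-fold higher in ΔDL as deposited were closer, at 55.7% of both LINE peaks and all peaks called for all 3. They were 61.1% and 58.3% for ΔDL alone, 70.8% and 67.3% for ΔDL and DBD, and 14.7% and 8.33% for KLF3 and ΔDL. The median scaled difference at LINE peaks was -0.04 for ΔDL and 0.00 for DBD, while over all peaks it was -0.64 and -1.87.

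**Figure D5:**
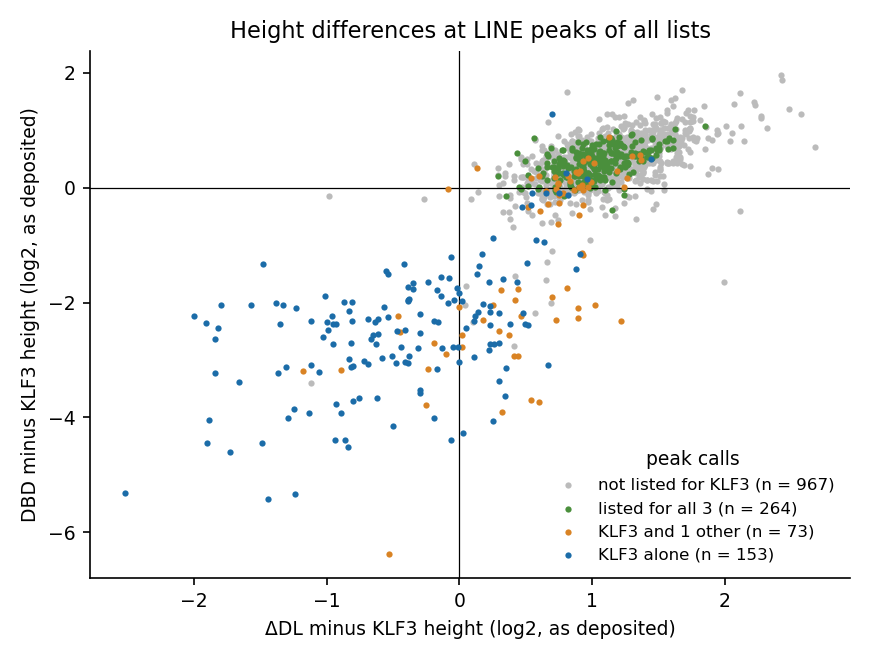
Height differences at the 1457 LINE peaks listed for any construct, ΔDL minus KLF3 (x axis) against DBD minus KLF3 (y axis), log2 as deposited, coloured by the lists in which the peak was called; both axes use the same KLF3 heights. Peaks listed for all 3 (medians 1.03 and 0.46) form a compact cloud above 0, and peaks listed for KLF3 alone (medians -0.39 and -2.38) lie below it.

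Among LINE peaks listed for KLF3, the loss in the mutants was less frequent than over all peaks listed for KLF3. Of 490 such LINE peaks, 174 were at least 2-fold lower in DBD (35.5%, against 79.2% of all peaks listed for KLF3), and after scaling 178 were (36.3%, against 80.2%). In ΔDL 32 were lower (6.53%, against 23.3%), and after scaling 122 (24.9%, against 66.2%). By class, 140 of the 153 LINE peaks called for KLF3 alone were lower in DBD (91.5%, against 97.5% of all peaks of this class). Of the 68 called for KLF3 and ΔDL, 34 were lower in DBD (50%, against 83.8%). For ΔDL, 31 of the 153 called for KLF3 alone were lower as deposited (20.3%, against 33.7%) and 109 after scaling (71.2%, against 86.7%). The classes rest on the same tags as the heights, so these counts describe them and carry no test.

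The highest LINE peaks of KLF3 held the consensus and were lower in DBD than in KLF3. The highest lay in an L3 element in intron 4 of Thpo, which encodes thrombopoietin, the hormone of platelet production. Its heights were 10.16 in KLF3, 10.06 in ΔDL and 7.26 in DBD, a DBD difference of -2.90. It was listed with 85 and 146 tags in the KLF3 replicates, 11 and 97 in ΔDL and 12 in DBD replicate 1, and was not listed in DBD replicate 2. The other 3 of the highest KLF3 LINE peaks described here had no entry in either DBD replicate list.

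Another lay in an L1MB8 element 94521 bp upstream of Asap1, which encodes an Arf GTPase-activating protein, with heights of 10.00, 9.76 and 6.84 in KLF3, ΔDL and DBD. A second L1MB8 peak in intron 1 of Asap1, chr15:64195653-64196053, had heights of 9.52, 9.21 and 6.73. The L2 peak 25965 bp from Odf1, a gene of the sperm tail, had 9.73, 10.33 and 5.99 and was also the highest LINE peak of ΔDL. These 4 peaks held the consensus in the KLF3 list. At Odf1 the ΔDL list placed the centre further along, at chr15:38174768-38175168, and its central 100 bp held no match.

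The 5 highest ΔDL LINE peaks were all called for KLF3 too. Besides those at Odf1, Thpo and Asap1 they included an L1MB4 peak 10633 bp upstream of Slc5a4b, of the sodium-glucose cotransporter family (chr10:75584196-75584596), with heights of 8.84 in KLF3, 9.73 in ΔDL and 6.57 in DBD. The last was an L2b peak 6095 bp upstream of the microRNA gene Mir99b (chr17:17960857-17961257), with 9.17, 9.63 and 6.93. Both held the consensus, and neither was listed in a DBD replicate.

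The 5 highest DBD LINE peaks held no consensus and no AP-1 sequence. All were called in all 3 lists and were also the 5 highest LINE peaks of KLF3 among those in all 3. They lay in a HAL1 element near Cox8c, an L1_Mur3 element on chromosome 18 near Gm4951, an Lx7 element near Ncam2 and L1M2 elements near Zpld1 and Atxn7l3b, where each gene is the nearest in the annotation and lay up to 689772 bp away, at Zpld1. The HAL1 peak, 4053 bp upstream of Cox8c, a cytochrome oxidase subunit gene, had heights of 8.39 in KLF3, 9.27 in ΔDL and 8.92 in DBD. Its replicate entries had 26 and 43 tags in KLF3, 32 and 46 in ΔDL, and 47 and 32 in DBD. The Lx7 peak near Ncam2, a neural adhesion gene 368455 bp away, had 8.35, 9.41 and 8.81. The L1M2 peak near Atxn7l3b had 8.13, 9.45 and 8.68. DBD exceeded KLF3 by 0.46 to 0.55 at these 5 peaks and ΔDL by 0.88 to 1.32 (log2 as deposited), which is close to the shifts of 0.42 and 1.06 over all shared peaks.

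The largest falls among LINE peaks that reached 8 on the log2 scale were at peaks called for KLF3. For ΔDL they were an L1MC1 peak in intron 1 of Acap2, an Arf GTPase-activating protein gene, with 8.01 in KLF3 and 6.11 in ΔDL, an L2 peak in intron 1 of Uck2, a uridine-cytidine kinase gene, with 9.25 and 7.36, and an L1M2 peak near Ptprk, a receptor phosphatase gene, with 8.07 and 6.5. For DBD they included a HAL1b peak of the ΔDL list nearest to Gm16907 (chr13:63294666-63295066) and an L3 peak near Rnf19b, an E3 ubiquitin ligase gene (chr4:128712319-128712719). Their KLF3 heights were 8.11 and 8.08, and their DBD heights of 1.73 and 3.57 were below 4.22, the height that 3 combined DBD tags are worth. The consensus was found at Acap2 and Rnf19b and not at Uck2, Ptprk or Gm16907. No fold is given for the DBD falls, since so few tags do not fix it. Of the 1457 LINE peaks, 26 lay at or below this height in DBD and none did in KLF3 or ΔDL.

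The largest rises among LINE peaks that reached 8 on the log2 scale in either construct compared lay in peaks of low G+C content, between 29.7% and 34.9%. For ΔDL they were an Lx8 peak near Rab38 (chr7:95871221-95871621), a gene of pigment vesicle transport, with 5.83 in KLF3 and 8.05 in ΔDL, an L1MA4 peak 14785 bp upstream of Car3, a carbonic anhydrase gene (chr3:14848553-14848953), with 7.01 and 9.0, and an Lx5 peak near 1110015O18Rik, with 6.28 and 8.22. These rises were 2.22, 1.99 and 1.94 as deposited, or about 1 less relative to the shift of 1.06. The peaks near Rab38 and Car3 were also listed in KLF3 replicate 1, with 8 and 11 tags, though not in KLF3 replicate 2. The ΔDL replicates had 10 and 18 tags near Rab38 and 7 and 31 at Car3. The peak near 1110015O18Rik was listed in neither KLF3 replicate. At Car3 the DBD height was 5.36, so the rise was seen in ΔDL and not in DBD. For DBD the largest rises under this limit were 1.03 at an L1_Mur2 peak in intron 2 of Robo1, a Slit receptor gene (chr16:72745549-72745949), 0.92 at an L1_Mur2 peak near Dsel and 0.79 at an L1ME4a peak in intron 1 of Egfem1. None of these 6 peaks held the consensus or an AP-1 sequence. Larger rises were found at LINE peaks below this limit.

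LINE peaks lay far from transcription start sites. The median distance to the nearest transcription start site was 67.6 kb for KLF3, 114 kb for ΔDL and 128 kb for DBD, against 30.9, 65.3 and 80.8 kb for other intronic and intergenic peaks. More than 100 kb lay between peak and start site for 41.7% of KLF3 LINE peaks, 53.0% for ΔDL and 56.1% for DBD. Introns held 34.0%, 25.2% and 24.1% of them, against 47.1%, 40.8% and 38.8% of the other peaks. Within 10 kb of a start site there were 55 KLF3 LINE peaks (11.5%), 93 of ΔDL (7.65%) and 40 of DBD (6.78%).

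The 5 KLF3 LINE peaks nearest to a start site were 1050 to 1535 bp away. An L2c peak in intron 1 of Gm16516 (height 8.52), an L1MB8 peak in intron 1 of Ssh1, a cofilin phosphatase gene (8.72), and an L1MB1 peak upstream of Aptx, a DNA repair gene (8.79), held the consensus. An L1_Rod peak in intron 1 of Ugt2a2, a glucuronosyltransferase gene (6.89), and an Lx5 peak near Zufsp (7.25) did not. The 3 with the consensus were the 3 highest.

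The X chromosome held 8.60% of KLF3 LINE peaks, 10.4% of ΔDL and 10.5% of DBD, against 2.93%, 5.33% and 5.97% of other intronic and intergenic peaks. By replicate, X held 7.21% and 7.49% of LINE peaks in KLF3, 9.73% and 8.86% in ΔDL, and 10.9% and 9.53% in DBD, higher than for other peaks in 6 of 6 lists. The mean PhastCons conservation score of LINE peaks was 0.0660, 0.0502 and 0.0484 in the merged lists, against 0.169, 0.1001 and 0.0858 for other intronic and intergenic peaks. LINE peaks of every list were thus less conserved, more distant from start sites and more often X-linked than the other peaks. LINEs are usually frequent far from genes and on the X chromosome, so the directions for distance and X could be foreseen from the choice of peaks.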

How the data were processed

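V5 ChIP-seq peaks of KLF3, ΔDL and DBD were taken from 6 replicate lists, from 3 merged lists and from a table that joins all peaks. Each of the 3 immunoprecipitation records covers both replicates, and the lists name the replicate. The authors mapped reads of 50 bp on mm9 (Bowtie2 2.0.0, SAMtools 0.1.18) and called peaks on each replicate with HOMER 4.1, requiring 5-fold enrichment over input at a false discovery rate of 0.001. How reads that fit several LINE copies were treated is not given in the sources used here. Peak scores are a signal, deposited by the authors as tags per 100 M. Heights are log2 values that the authors counted in both replicates combined. The G+C content is a fraction computed by the authors, and the conservation value is a PhastCons score that they deposited. The columns of CpG content and focus ratio were not used.

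The depth in counted tags was 1.77 M to 18.1 M per list, below the mapped reads that the paper lists for each immunoprecipitation. Peaks overlapped when they shared at least 1 bp. Motifs were read from the mm9 genome, and the file's G+C values were recovered from it. "Other" peaks were intronic or intergenic without a LINE. Lists were compared by two-sided exact permutation tests with Benjamini-Hochberg adjustment over 3 construct pairs or 4 within-list comparisons; peaks are not replicates. Alternatives were the upper 50% of peaks, equal numbers of top peaks, other windows, fold limits, scalings, denominators and overlap rules, and leaving out each replicate. The peaks named were the 5 highest of each list, the 5 highest in all 3, the 5 of KLF3 nearest to a start site, and the 3 largest rises and falls in each mutant among those reaching 8 log2; 2 of the peaks chosen by this rule are not reported here. The LINE peaks, motifs and comparisons were chosen with earlier results of these data known. The code was tested on simulated data. The work was done in Python 3.11.15 with pysam 0.24.0, scipy 1.17.1, pandas 2.3.3 and numpy 2.4.6.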

Additional observations from a re-analysis of the deposited data

How the results depend on the processing

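Of 179 alternative values for 25 results, 124 kept their direction and their side of the threshold or stayed within the set margin, 29 kept their direction but lost the threshold, 26 moved and none reversed. The cause of these changes was not tested unless the alternative's construction shows it. With the upper 50% of replicate peaks by score, the difference between LINE and other peaks was -4.42 points for G+C, -10.4 for the consensus and -3.24 for AP-1, and in peaks found in both replicates -4.16, -9.93 and -4.05. Against all peaks without a LINE, promoters included, it was -6.63, -16.05 and -2.14, with adjusted p above 0.05 since fewer of the 4 comparisons then had the smallest p. A window of 50 bp gave -6.82 for the consensus and -1.15 for AP-1. In the upper 50% of the merged lists by height, LINEs took 1.27% of KLF3 and 7.70% of ΔDL peaks, the median LINE heights were 8.28, 7.97 and 7.51 for KLF3, ΔDL and DBD by construction, and 37.8% and 6.67% of KLF3 LINE peaks overlapped a ΔDL or DBD peak. With only the KLF3 list cut in this way, an alternative chosen after the data were seen, 40.0% and 6.67% did. An overlap in either replicate list gave 88.7% and 62.3%. Among intronic and intergenic peaks the LINE share was 5.11% for KLF3 and 11.2% for ΔDL. The numbers of LINE peaks with ΔDL lower, ΔDL higher and DBD higher than KLF3 were 127, 15 and 15 after scaling, 65, 1220 and 478 at 1.5-fold, 2, 18 and 0 at 4-fold, and 15, 347 and 32 in the upper 50%, where DBD was lower at 95.

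Leaving out each replicate in turn gave LINE share differences of 2.94 to 6.00 points between ΔDL and KLF3, 6.24 to 8.98 between DBD and KLF3 and 1.61 to 4.67 between DBD and ΔDL. For the L1 share they were 3.75 to 10.1, 5.23 to 11.6 and 0.591 to 2.37, and for G+C -6.08 to -1.30, -7.23 to -2.44 and -1.79 to -0.505. Within lists the score difference ran from -0.09 to -0.06 (log2), G+C from -5.11 to -3.44, the consensus from -11.4 to -7.26 and AP-1 from -5.09 to -3.47; with 5 lists the adjusted p cannot go below 0.0833. With the replicate number as a replicate block, the LINE share differences were 4.47, 7.61 and 3.14 points as without it, with an exact p of 0.5, the smallest that 2 pairs allow. With so few pairs it was not checked whether the numbers pair the lists. Tags per peak limit the scores of the shallow lists.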
